A study of Mus musculus with 13 samples.

Results

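Transcripts of 10 matricellular proteins were measured in injured mouse hamstring muscle: the CCN proteins Ccn1, Ccn2, Ccn4 and Ccn5, the thrombospondins Thbs1, Thbs2 and Thbs4, tenascin C (Tnc), periostin (Postn) and Sparc. They were taken by gene symbol from a table of 14911 genes, and all 10 were in it. The dexamethasone group held 9 female C57BL/6 mice given a daily intraperitoneal injection of this synthetic glucocorticoid at 10 mg/kg, and the saline group held 4 female C57BL/6 mice given saline on the same schedule. The hamstring of every mouse in either group had first been injected with cardiotoxin at 0.32 mg/kg, a cobra toxin used to make fibres die and regenerate, and whole muscle was taken at day 4, so no uninjured muscle enters the comparison. Each mouse gave 1 library of polyadenylated RNA. The submitters report bone in the injured muscle of every dexamethasone mouse (2.40 ± 5.42 mm3) and left out 1 of 5 saline mice because bone had formed in it, so the drug and bone formation cannot be told apart here. Ages of the mice were not found in the labels.

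Matricellular proteins are secreted into the matrix around cells but mostly do not build its fibres. They bind integrins, proteoglycans, growth factors and proteases and so change how cells attach, move and respond to growth factors. They are scarce in most resting adult tissues and abundant in wounds, where fibroblasts, macrophages, smooth muscle and endothelial cells make them. In regenerating muscle, tenascin C and periostin form part of the transitional matrix around new fibres, and Ccn1 and Ccn2 are textbook targets of YAP and TAZ, the coactivators of TEAD transcription factors that respond to tension on the cell.

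Of the 10 transcripts 8 rose under dexamethasone and 0 fell (limma, adjusted p under 0.05 over all 14911 genes), where 25.2% of all genes rose, 22.9% fell and 48.1% were called in either direction. Thbs1 rose most, 5.38-fold, followed by Ccn2 (3.19-fold), Ccn4 (2.62-fold), Ccn1 (2.35-fold) and Tnc (2.30-fold). Postn and Sparc, the members with the most abundant transcripts, were not called. The median log2 fold change of the 10 was 1.02, against 0.0071 over all genes. At least 2-fold rises numbered 5 of 10, where 2.5% of all genes rose as much, and in 6 of 10 every dexamethasone library lay above every saline library, which was the case in 12.9% of all genes. Among the 9217 genes at or above the lowest mean level of a member, 29.4% rose. The members were chosen with earlier results of these data known, so these shares are a description and no test goes with them.

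**Figure D1:**
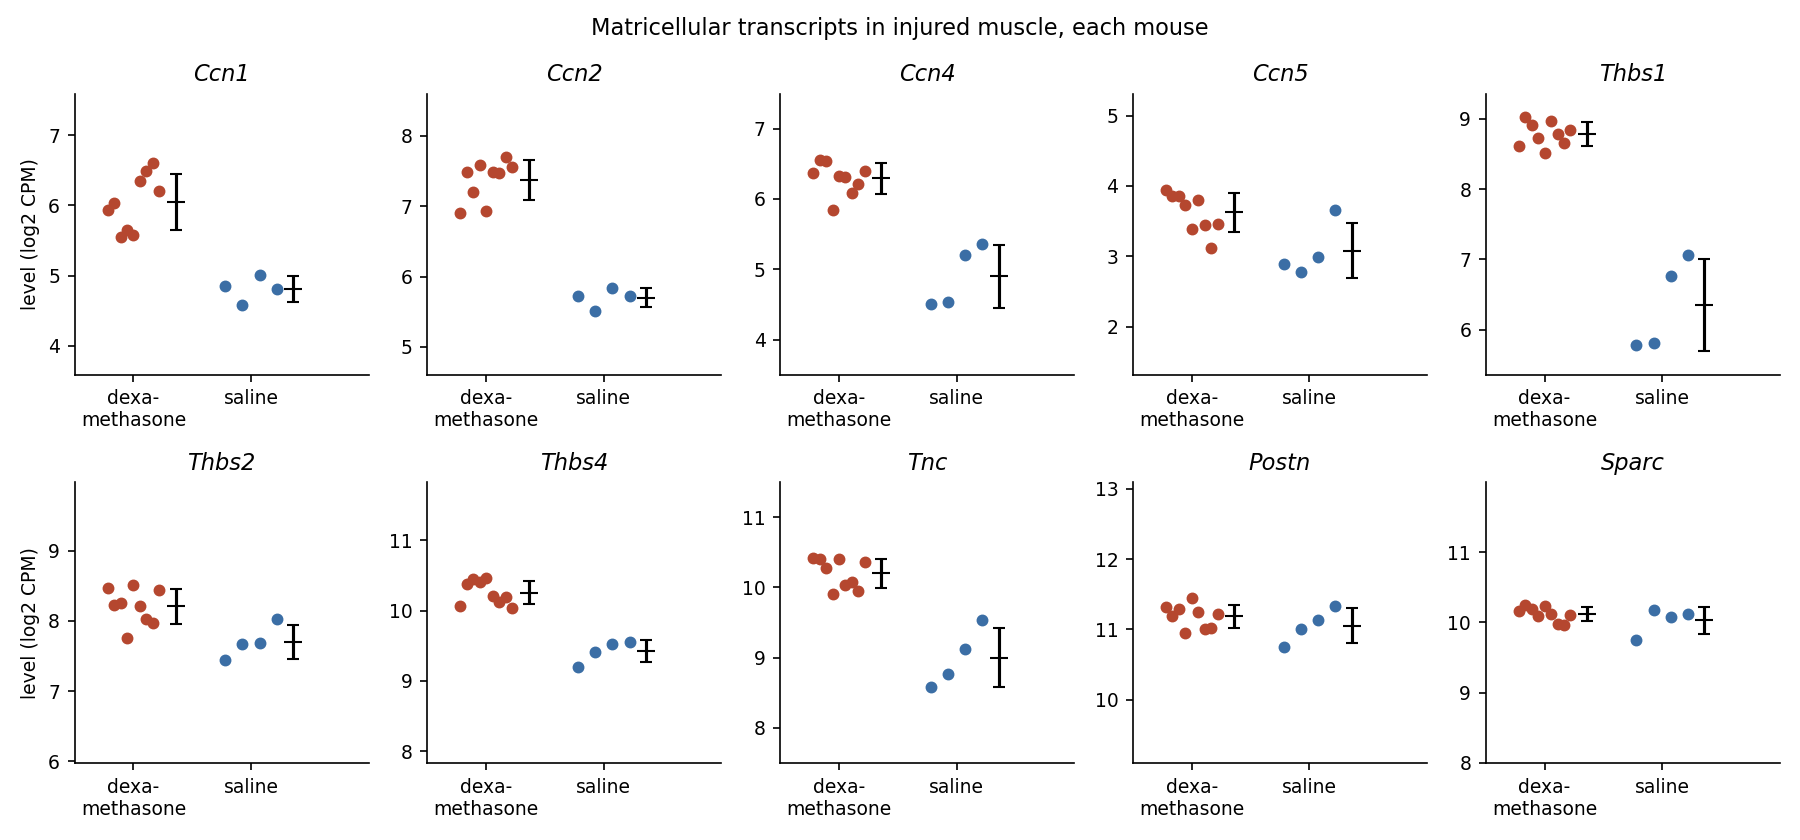
Level of each member in each mouse (points, log2 CPM, left to right in order of library number) with the mean and SD beside them, for 9 dexamethasone mice (red) and 4 saline mice (blue); every panel spans the same number of log2 units. The groups are apart for Ccn1, Ccn2, Ccn4, Thbs1, Thbs4 and Tnc and overlap for Ccn5, Thbs2, Postn and Sparc.

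Promoter sequence was at hand for 6 of the 10 members, in 8 windows of 250 bases before to 50 bases after a RefSeq start (GRCm38.p6, the same build as mm10). Those of Ccn1 and Thbs4 are shown because, of the member windows, they alone hold the core letters bound by TEAD factors, GGAATG on either strand, which 14.7% of all 32851 promoter windows hold. Capitals mark these letters, read on the opposite strand as CATTCC, and in Ccn1 also the letters TATAAA. Both sequences are given 5′ to 3′ on the strand of the gene, Ccn1 from the minus strand at chr3:145649936-145650235 and Thbs4 from the minus strand at chr13:92794769-92795068.
Ccn1: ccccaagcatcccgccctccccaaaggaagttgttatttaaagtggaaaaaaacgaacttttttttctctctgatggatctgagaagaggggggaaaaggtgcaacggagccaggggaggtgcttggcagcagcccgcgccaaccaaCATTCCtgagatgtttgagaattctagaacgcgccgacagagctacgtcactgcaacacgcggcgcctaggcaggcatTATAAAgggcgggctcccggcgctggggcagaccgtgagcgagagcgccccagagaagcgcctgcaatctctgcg
Thbs4: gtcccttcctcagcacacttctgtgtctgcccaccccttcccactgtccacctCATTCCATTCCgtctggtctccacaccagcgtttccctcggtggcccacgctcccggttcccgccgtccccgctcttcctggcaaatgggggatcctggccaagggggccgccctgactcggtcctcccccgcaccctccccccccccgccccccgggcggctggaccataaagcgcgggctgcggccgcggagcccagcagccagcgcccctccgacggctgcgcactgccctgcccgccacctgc
Counted from the start, the match begins at -103 in Ccn1, and a pair of overlapping matches begin at -197 and -192 in Thbs4. The letters TATAAA, on either strand, were in 5 of the 8 member windows (Ccn1, Thbs2, 1 window of Postn and both of Tnc), against 13.6% of all windows. Both Tnc windows overlap and hold the same match, so this site is counted in each. The match begins at -25 in Ccn1 and -26 in Postn. It begins at -126 in Thbs2, on the opposite strand, and at -205 or -126 in Tnc, by window. None of the 8 windows held the AP-1 letters TGANTCA (7.81% of all windows), the CArG box of serum response factor (1.63%) or the full palindromic glucocorticoid response element (0.00913%). Both strands were searched for each.

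Libraries held 28021111 to 34942266 reads in dexamethasone mice and 25531487 to 32537345 in saline mice, and the scarcest member, Ccn5, had 165 to 538 reads per library. The sampled tissue expressed its defining genes: the 16 mature muscle fibre markers summed to 95355 to 142034 CPM (reads scaled to a common library size) in dexamethasone libraries and to 145956 to 215047 CPM in saline libraries. Of these fibre markers 8 fell and 0 rose, with Casq1, a calcium store protein, 1.95-fold lower and Eno3, muscle enolase, 1.90-fold lower. Of all genes 22.9% fell and 25.2% rose. In whole muscle, fewer cells of a type and less RNA per cell cannot be told apart.

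Among the CCN genes, Ccn2 (connective tissue growth factor; Entrez 14219, mm10 chromosome 10, 24595442 to 24598683), which acts beside transforming growth factor beta in scarring, stood at 6.91, 7.49 and 7.70 log2 CPM (lowest, median and highest of 9) in dexamethasone libraries, against 5.72, 5.51, 5.83 and 5.72 log2 CPM in saline libraries 1, 2, 3 and 5. The lowest dexamethasone library was 1.08 log2 units above the highest saline library. Its log2 fold change was 1.68 ± 0.13 (SE; adjusted p 2.28e-07, limma; 95% interval 2.63- to 3.88-fold). Ccn1 (also Cyr61; Entrez 16007, chromosome 3, 145646971 to 145649985), whose promoter is printed above and whose protein binds integrins and drives adhesion and blood vessel growth, stood at 5.55, 6.03 and 6.61 log2 CPM in dexamethasone libraries, against 4.86, 4.57, 5.00 and 4.80 log2 CPM in saline libraries 1, 2, 3 and 5. The groups did not overlap, and the dexamethasone libraries spread more (SD 0.40, n = 9) than the saline libraries (SD 0.18, n = 4). The log2 fold change of Ccn1 was 1.23 ± 0.18 (SE; adjusted p 4.94e-05, limma).

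Ccn4 (also Wisp1; Entrez 22402, chromosome 15, 66891369 to 66923201), a Wnt-induced CCN protein that fibro-adipogenic progenitors of mouse muscle secrete, stood at 5.85, 6.32 and 6.55 log2 CPM in dexamethasone libraries, against 4.50, 4.53, 5.20 and 5.37 log2 CPM in saline libraries 1, 2, 3 and 5. Saline libraries 1 and 2 lay below 3 and 5, and all 4 lay below every dexamethasone library (log2 fold change 1.39 ± 0.15, SE; adjusted p 4.48e-06, limma). Ccn5 (also Wisp2; Entrez 22403, chromosome 2, 163820752 to 163833146), which lacks the carboxy-terminal domain of the other CCN proteins, stood at 3.12, 3.73 and 3.94 log2 CPM in dexamethasone libraries, against 2.90, 2.78, 2.99 and 3.66 log2 CPM in saline libraries 1, 2, 3 and 5. Saline library 5 lay within the dexamethasone range. Ccn5 rose 1.46-fold (log2 fold change 0.54 ± 0.16, SE; adjusted p 0.0125, limma), a call that ended without saline library 2 (log2 fold change 0.44, adjusted p 0.0582, limma) and in an exact rank sum test (adjusted p 0.0713).

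Thrombospondins are large glycoproteins, trimeric in Thbs1 and Thbs2 and pentameric in Thbs4. Thbs1 (Entrez 21825, chromosome 2, 118111876 to 118127133), which activates latent transforming growth factor beta and checks vessel growth through Cd36 and Cd47, stood at 8.51, 8.78 and 9.02 log2 CPM in dexamethasone libraries, against 5.78, 5.81, 6.76 and 7.06 log2 CPM in saline libraries 1, 2, 3 and 5. The dexamethasone libraries lay close together (SD 0.17, n = 9), while the saline libraries fell into a lower pair, 1 and 2, and a higher pair, 3 and 5 (SD 0.65, n = 4). The log2 fold change was 2.43 ± 0.19 (SE; adjusted p 2.21e-07, limma; 95% interval 4.08- to 7.11-fold), and lay at 2.24 without saline library 1 and at 2.66 without saline library 5. By log2 fold change Thbs1 ranked 37 among all 14911 genes.

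Thbs2 (Entrez 21826, chromosome 17, 14665500 to 14694262), a fibroblast product that inhibits vessel growth, stood at 7.76, 8.23 and 8.51 log2 CPM in dexamethasone libraries, against 7.44, 7.66, 7.69 and 8.03 log2 CPM in saline libraries 1, 2, 3 and 5. The groups overlapped, with dexamethasone library 4 lowest in its group. Thbs2 rose 1.41-fold (log2 fold change 0.50 ± 0.13, SE; adjusted p 0.00491, limma). Thbs4 (Entrez 21828, chromosome 13, 92751586 to 92794818), a protein of tendon and muscle matrix that in mice stabilises the fibre membrane and whose promoter is printed above, stood at 10.04, 10.21 and 10.46 log2 CPM in dexamethasone libraries, against 9.20, 9.42, 9.52 and 9.55 log2 CPM in saline libraries 1, 2, 3 and 5. It rose 1.78-fold with no overlap (log2 fold change 0.83 ± 0.10, SE, adjusted p 6.1e-06, limma). The SD was 0.17 log2 units in dexamethasone libraries and 0.16 in saline libraries (n = 9 and 4).

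Tnc (Entrez 21923, chromosome 4, 63959785 to 64047015), a large glycoprotein of wounds and of the tendon junction, stood at 9.91, 10.28 and 10.41 log2 CPM in dexamethasone libraries, against 8.59, 8.77, 9.12 and 9.53 log2 CPM in saline libraries 1, 2, 3 and 5. The groups did not overlap (log2 fold change 1.20 ± 0.15, SE; adjusted p 1.1e-05, limma). Postn (Entrez 50706, chromosome 3, 54359267 to 54391041), which binds collagen and integrins, stood at 10.95, 11.21 and 11.45 log2 CPM in dexamethasone libraries, against 10.75, 11.00, 11.14 and 11.33 log2 CPM in saline libraries 1, 2, 3 and 5. The saline range nearly covered the dexamethasone range. Its log2 fold change was 0.13 ± 0.11 (SE; adjusted p 0.361, limma), with a 95% interval of 0.926- to 1.30-fold, and it was called higher under quantile normalisation (log2 fold change 0.38, adjusted p 0.0162, limma).

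Sparc (osteonectin; Entrez 20692, chromosome 11, 55394159 to 55420080), a collagen-binding protein of bone and remodelling tissue, stood at 9.96, 10.11 and 10.25 log2 CPM in dexamethasone libraries, against 9.75, 10.17, 10.07 and 10.11 log2 CPM in saline libraries 1, 2, 3 and 5. The groups overlapped, with 3 dexamethasone libraries above every saline library and saline library 1 below every other library. Its log2 fold change was 0.092 ± 0.082 (SE; adjusted p 0.374, limma), with a 95% interval of 0.945- to 1.20-fold. Exact permutation tests over the 13 libraries, two-sided, gave the smallest p they allow, 0.0028, for the 6 members without overlap, 0.0112 for Thbs2, 0.0252 for Ccn5, 0.28 for Postn and 0.302 for Sparc. Ccn2, Tnc and Postn each overlap 1 other RefSeq gene, none of which was among the 14911, and without a stated strand setting reads of such overlaps cannot be told apart. In the authors' deposited table, the log2 fold changes ran from 0.093 for Sparc to 2.43 for Thbs1.

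**Figure D2:**
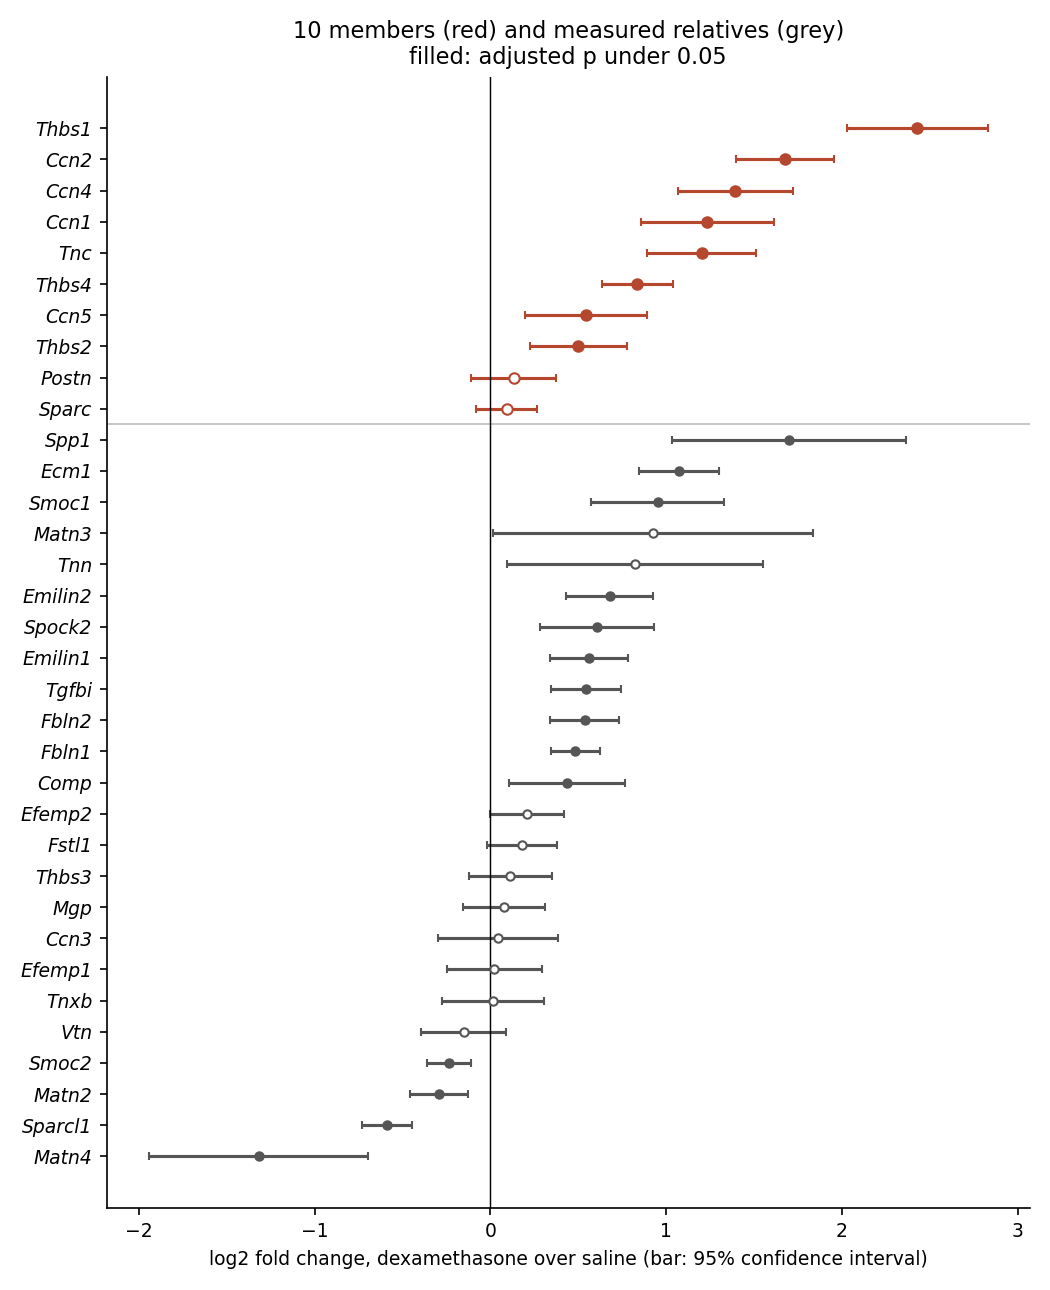
Log2 fold change of dexamethasone over saline (x axis) with its 95% interval for the 10 members (red) and 24 measured relatives (grey); filled points had an adjusted p under 0.05. Members run from 0.092 for Sparc to 2.43 for Thbs1, and relatives from -1.32 for Matn4 to 1.70 for Spp1.

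Levels of different genes were set side by side per kilobase of exon, as RPKM, with exon lengths from GENCODE transcripts that carry a RefSeq mRNA. In dexamethasone libraries Postn led with a mean of 712 RPKM, followed by Sparc (485 RPKM), Thbs4 (385 RPKM), Tnc (167 RPKM), Thbs1 (75.6 RPKM), Ccn2 (70.3 RPKM), Thbs2 (50.8 RPKM), Ccn1 (33.8 RPKM), Ccn4 (15.5 RPKM) and Ccn5 (7.28 RPKM). In saline libraries the first 4 kept that order, with means of 653 RPKM for Postn, 457 for Sparc, 215 for Thbs4 and 74.5 for Tnc. Below them stood Thbs2 (35.8 RPKM), Ccn2 (21.7 RPKM), Thbs1 (15.1 RPKM), Ccn1 (14.0 RPKM), Ccn4 (6.07 RPKM) and Ccn5 (5.07 RPKM). Thbs1 was thus above Thbs2 in dexamethasone libraries and below it in saline libraries. Within the dexamethasone group the neighbours Thbs1 and Ccn2 lay within their spread (6.23 ± 0.17 and 6.11 ± 0.29 log2 RPKM, SD, n = 9), as did Thbs1 and Ccn1 within the saline group (3.80 ± 0.65 and 3.80 ± 0.18 log2 RPKM, SD, n = 4).

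Whether related members rose by different amounts was tested on their log2 CPM ratio within each library and so does not depend on how libraries are scaled; the ratio itself is not corrected for gene length. Of 12 ratios 7 differed between groups (exact permutation, two-sided, Benjamini-Hochberg adjusted over the 12). Thbs1 over Thbs2 averaged 0.57 ± 0.33 in dexamethasone libraries (SD, n = 9) and -1.35 ± 0.47 in saline libraries (SD, n = 4), a difference of 1.93 (exact permutation p 0.0028, adjusted p 0.0056). Thbs1 over Thbs4 averaged -1.48 ± 0.24 in dexamethasone libraries and -3.07 ± 0.53 in saline libraries (SD, n = 9 and 4), with the same exact p and adjusted p. Thbs1 thus rose more than either of the other thrombospondins, higher in 9 of 9 dexamethasone libraries than in any saline library by both ratios.

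Tnc rose more than Postn and Sparc, the members it was set against. Tnc over Postn averaged -0.98 ± 0.13 in dexamethasone libraries and -2.05 ± 0.19 in saline libraries (SD, n = 9 and 4; exact permutation p 0.0028, adjusted p 0.0056). Tnc over Sparc averaged 0.083 ± 0.15 in dexamethasone libraries and -1.03 ± 0.35 in saline libraries (SD, n = 9 and 4), with the same exact p and adjusted p. Postn over Sparc differed by 0.039 (exact permutation p 0.599, adjusted p 0.599), its dexamethasone libraries at 0.86 to 1.21 and its saline libraries at 0.83 to 1.22.

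Within the CCN genes, Ccn2 over Ccn1 averaged 1.33 ± 0.32 in dexamethasone libraries and 0.89 ± 0.05 in saline libraries (SD, n = 9 and 4; exact permutation p 0.0028, adjusted p 0.0056), so Ccn2 rose more than Ccn1, above the saline range in 9 of 9 libraries. Ccn2 and Ccn4 each rose more than Ccn5, by 1.13 and 0.85 on the log2 scale (exact permutation, adjusted p 0.0056 and 0.0096). Ccn1 over Ccn5 differed by 0.69 (exact permutation p 0.0476, adjusted p 0.0713), and Thbs4 over Thbs2 by 0.33 (exact permutation p 0.0615, adjusted p 0.082). Neither passed adjustment over all 13 libraries, but Ccn1 over Ccn5 did without dexamethasone library 3 (difference 0.78, exact permutation, adjusted p 0.0303) and Thbs4 over Thbs2 without dexamethasone library 1 or 9 (difference 0.39 in each, exact permutation, adjusted p 0.0364 and 0.0424). Leaving out any single saline library made neither pass. Without saline library 5 these differences shrank to 0.50 and 0.27 (exact permutation, adjusted p 0.23 in each).

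**Figure D3:**
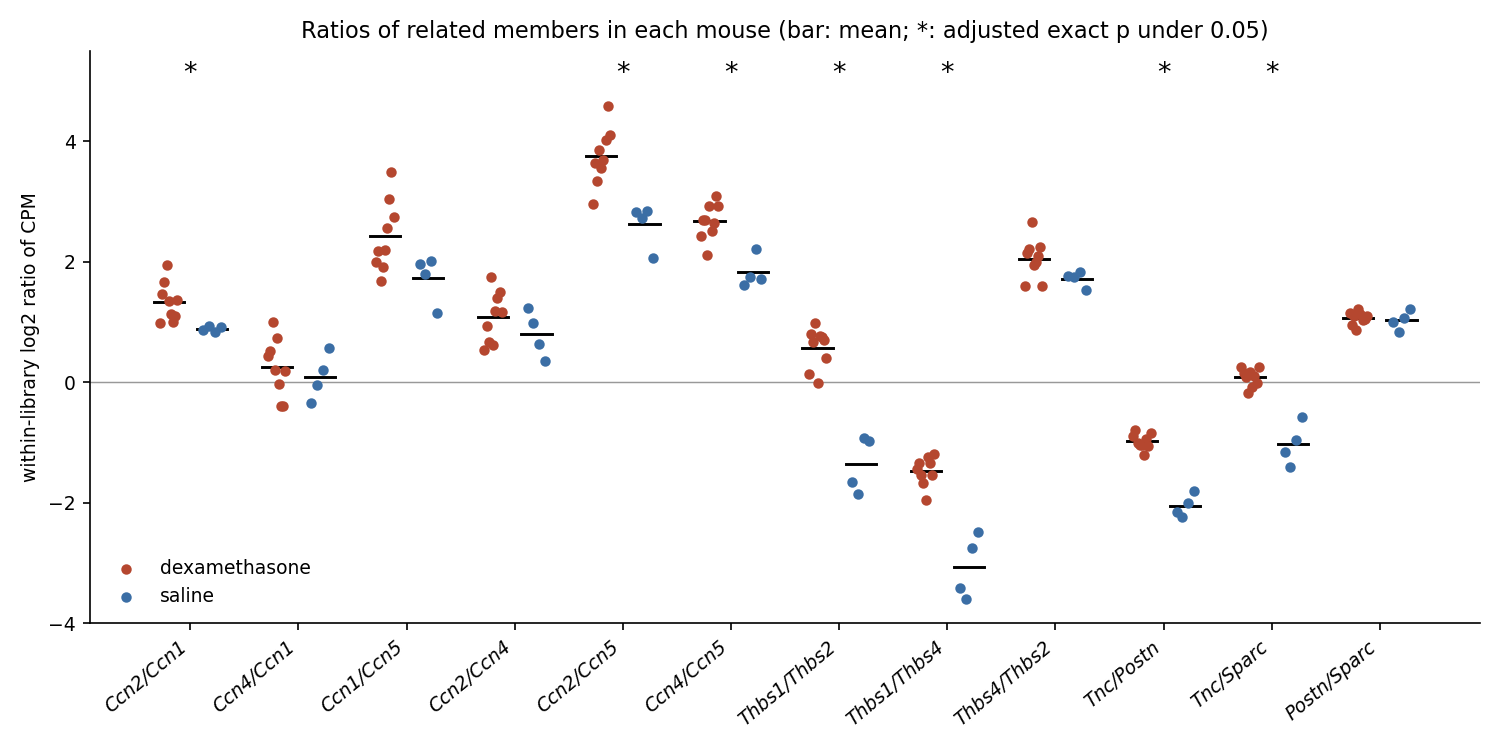
Log2 ratio of CPM of related members within each library (points) with group means (bars), dexamethasone (red) left of saline (blue); a star marks an adjusted exact p under 0.05. The ratios of Thbs1 to the other thrombospondins and of Tnc to Postn and Sparc are apart between the groups, and Postn over Sparc covers one range in both.

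Among the 9 dexamethasone mice the members did not vary as a block. Of 45 pairs, 19 had a negative Pearson correlation, and 2 passed adjustment over the 45 (exact permutation, Benjamini-Hochberg). Thbs2 went with Postn (r 0.914, exact permutation p 0.00081, adjusted p 0.0308; rho 0.90, exact permutation p 0.00203) and with Tnc (r 0.891, exact permutation p 0.00137, adjusted p 0.0308; rho 0.85, exact permutation p 0.00607). Without the 2 libraries farthest from the median of Thbs2 these r were 0.844 and 0.837, and without dexamethasone library 4 they were 0.882 and 0.852, but neither pair passed adjustment in either setting (smallest adjusted p over the 45 pairs 0.427 and 0.0902, exact permutation). By rank correlation 0 of 45 pairs passed adjustment, 7 having an unadjusted p under 0.05 (exact permutation). Ccn2 ran opposite to Postn (r -0.803, exact permutation p 0.00355, adjusted p 0.0532; rho -0.767, exact permutation p 0.0214), with r -0.65 without the 2 libraries farthest from the median of Ccn2. In the saline group, with 4 libraries, no correlation was computed. There library 5 was the highest for 7 of 10 members and library 1 the lowest for 7 of 10.

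**Figure D4:**
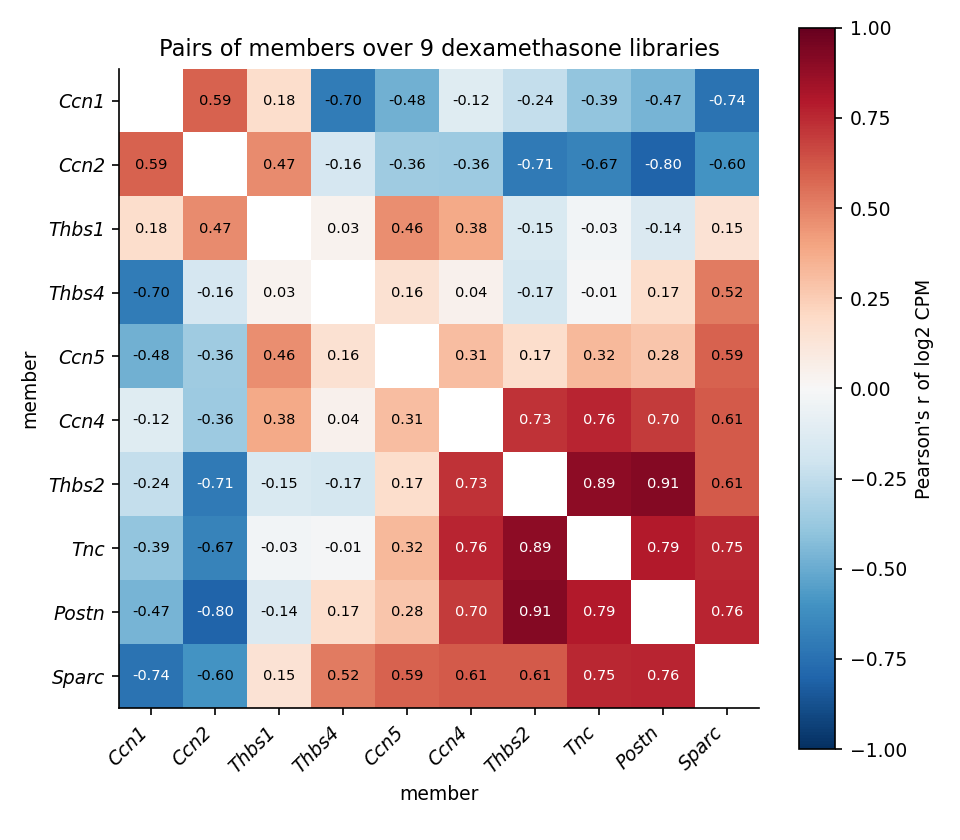
Pearson correlation (colour and number) of log2 CPM between each pair of members over the 9 dexamethasone libraries. Ccn4, Thbs2, Tnc, Postn and Sparc correlate positively with each other, and Ccn2 has negative values with all of them, but only Thbs2 with Postn and Thbs2 with Tnc passed adjustment.

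For each member up to 3 genes of most similar course over the 9 dexamethasone libraries, by Pearson correlation among 9947 genes, are given as a description. They were Clasp2, Bhlhe40 and Sirt3 for Ccn1 (r 0.958, 0.943 and 0.932) and Spry4, Lrrc61 and Apbb2 for Ccn2 (r 0.934, 0.901 and 0.898). Syde1, Cul7 and Ankrd12 were nearest to Ccn4 (r 0.967, 0.964 and 0.962), and Lilr4b, Gpat4 and Ttc38 to Ccn5 (r 0.912, 0.908 and 0.907). Thbs1 was nearest to Rab4b, Gabpb1 and Rnf144a (r 0.914, 0.911 and 0.872), Thbs2 to Tlr9, Fmnl3 and Pltp (r 0.985, 0.95 and 0.928) and Thbs4 to Ggnbp2 and Arf6 (r 0.954 and 0.931). Tnc was nearest to Kat7, Ccdc88b and Mthfd1l (r 0.94, 0.931 and 0.929), Postn to Plekhf2, Plscr3 and Ccnl2 (r 0.97, 0.955 and 0.952) and Sparc to Myo7a, Ctnna1 and Plxnb2 (r 0.971, 0.97 and 0.953). They were picked for a high r among many genes, so no test goes with them.

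Relatives of the members were split, where 25.2% of all genes rose and 22.9% fell. Ccn3, the remaining measured CCN gene, had 5.38 ± 0.30 log2 CPM in dexamethasone libraries and 5.34 ± 0.34 log2 CPM in saline libraries (SD, n = 9 and 4; adjusted p 0.846, limma). Of the other thrombospondins Comp, of cartilage and tendon, rose 1.35-fold while Thbs3 stood at 6.15 ± 0.19 log2 CPM in dexamethasone and 6.03 ± 0.26 log2 CPM in saline libraries (SD, n = 9 and 4; adjusted p 0.428, limma). The tenascins Tnn and Tnxb had log2 fold changes of 0.82 ± 0.34 and 0.014 ± 0.14 (SE; adjusted p 0.0583 and 0.94, limma). In the SPARC family 2 of 5 rose and 2 fell: the calcium-binding Smoc1 and the proteoglycan Spock2 rose 1.93- and 1.52-fold, whereas Sparcl1, an anti-adhesive relative of Sparc, was lower by a log2 fold change of -0.59, with all 9 dexamethasone libraries below every saline library, and Smoc2 was 1.18-fold lower. Of 14 other matricellular and matrix-associated genes 7 rose and 2 fell. Spp1, osteopontin, rose 3.25-fold, Ecm1, an extracellular matrix protein, 2.10-fold and Tgfbi, a periostin relative, 1.46-fold, while the matrilins Matn2 and Matn4 were 1.22- and 2.50-fold lower, Matn4 at under 1 log2 CPM and named only to complete the count.

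Receptors for these proteins mostly rose. Of 25 integrins and other cell surface receptors 17 rose and 2 fell (median log2 fold change 0.34, against 0.0071 over all genes, of which 25.2% rose). Sdc4, a heparan sulphate co-receptor of integrins, rose 1.61-fold, Lrp1, a scavenger receptor that takes up Ccn2 and Thbs1, 1.59-fold, Itga7, the laminin integrin of muscle fibres, 1.38-fold and Tlr4, a tenascin C receptor of the innate immune system, 1.84-fold. The Thbs1 receptors Cd36 and Cd47 rose 1.94- and 1.17-fold (adjusted p 2.35e-05 and 0.00969, limma), whereas Itgb3, a partner of Itgav, was at -0.28 on the log2 scale (adjusted p 0.0537, limma); these 3 were chosen after their values were seen.

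Lists of target genes known from other cells were counted next, with the members themselves left out. Of all genes 25.2% rose and 22.9% fell, with a median log2 fold change of 0.0071. Whether these pathways were active was not tested. Of 20 YAP and TAZ targets 14 rose and 1 fell, with a median log2 fold change of 0.39. Amotl2, a feedback regulator of YAP, rose 1.83-fold, Fjx1 1.88-fold, Rbms3 1.60-fold and Myof, a membrane repair protein, 1.58-fold. Of 18 targets of serum response factor and its MRTF coactivators 11 rose and 2 fell, with a median of 0.45: the actin-associated Tpm4, Tagln2 and Flna rose 1.80-, 1.79- and 1.67-fold, whereas the myosin light chain Myl9 was 1.81-fold lower. Of 18 transforming growth factor beta targets 11 rose and 0 fell, with a median of 0.77. Lox, the collagen cross-linking enzyme, rose 4.25-fold, Ltbp2 3.95-fold and Pmepa1, a feedback inhibitor, 1.91-fold, while Col1a1, Col1a2 and Col3a1, the fibrillar collagens of that list, had log2 fold changes of -0.15, -0.19 and -0.14 and were not called (adjusted p 0.412, 0.229 and 0.397, limma; chosen after their values were seen).

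**Figure D5:**
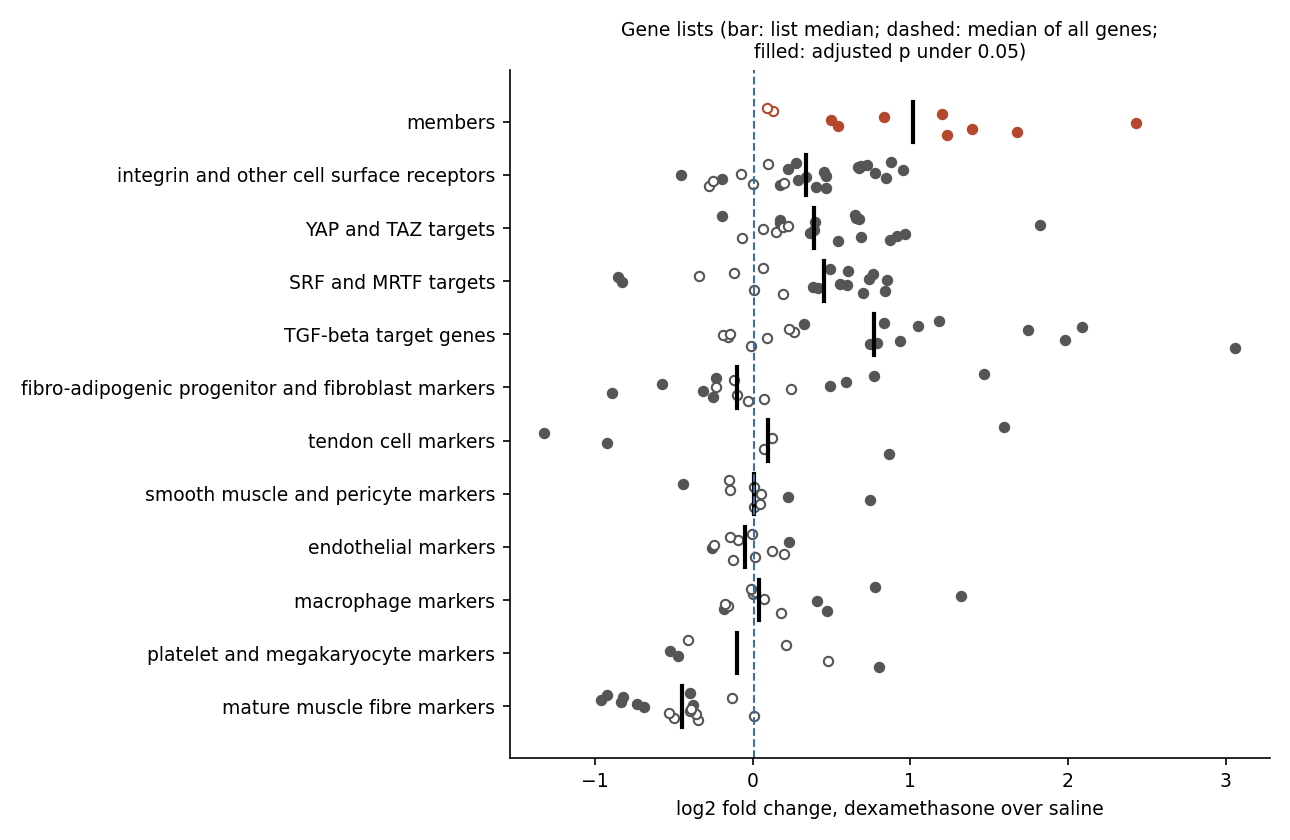
Log2 fold change of dexamethasone over saline (x axis) for each measured gene of 12 lists (points; filled where the adjusted p was under 0.05) with list medians (bars) and the median of all genes (dashed line). The medians are 1.02 for the members, 0.77 for transforming growth factor beta targets and -0.45 for mature fibre markers.

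Markers of cells that can make these proteins did not share 1 direction. The counts here and in the next paragraph are to be set beside all genes, of which 25.2% rose and 22.9% fell. Counts near these shares say little about a cell type. Of 15 fibro-adipogenic progenitor and fibroblast markers 4 rose and 5 fell, with Cxcl14 2.77-fold and Gsn 1.51-fold higher and the matrix genes Lum and Clec3b at log2 fold changes of -0.89 and -0.57; they summed to 3445 to 4053 CPM in dexamethasone libraries and to 2825 to 3680 CPM in saline libraries. Of 6 tendon markers 2 rose and 2 fell: Scx and Egr1 were 1.82- and 3.02-fold higher, Tnmd and Kera 1.90- and 2.49-fold lower, and the list summed to 216 to 308 CPM in dexamethasone and 146 to 238 CPM in saline libraries. Of 10 endothelial markers 1 rose and 1 fell (378 to 456 CPM in dexamethasone, 393 to 453 CPM in saline libraries), and of 9 smooth muscle and pericyte markers 2 rose and 1 fell (4827 to 6967 CPM in dexamethasone, 5878 to 6709 CPM in saline libraries). The latter sum is mostly Des, chosen after its values were seen, and says little about the other markers of that list. Des had 12.28 ± 0.16 log2 CPM in dexamethasone and 12.43 ± 0.07 log2 CPM in saline libraries (SD, n = 9 and 4). Of 12 macrophage markers 4 rose and 1 fell, led by Mrc1, the mannose receptor, 2.50-fold higher (2563 to 3403 CPM in dexamethasone, 2148 to 3143 CPM in saline libraries).

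Of 6 measured platelet markers 1 rose and 2 fell; Pf4, a platelet chemokine that macrophages also make, rose 1.74-fold, while Itga2b and Gp1ba were 1.39- and 1.44-fold lower (44.9 to 73.9 CPM in dexamethasone, 28.9 to 48.6 CPM in saline libraries). Of 10 myoblast markers 3 rose and 2 fell (511 to 654 CPM in dexamethasone, 402 to 674 CPM in saline libraries), and of 7 Schwann cell markers 1 rose and 2 fell (181 to 254 CPM in dexamethasone, 247 to 303 CPM in saline libraries). Of 6 chondrocyte markers 0 rose and 1 fell, and of 7 osteoblast markers 1 rose and 2 fell. Col11a2 and Alpl were 2.39- and 1.66-fold lower, and Runx2 rose 1.63-fold. Sp7, named to complete the count, was 8.82-fold lower (-1.72 to -0.25 log2 CPM in dexamethasone, 1.74 to 2.67 log2 CPM in saline libraries). Ibsp and Col2a1, chosen after their values were seen, were not called. Their highest saline values were 3.52 and 3.87 log2 CPM, with lows of -6.03 and -0.67, against at most -0.19 and -0.089 in dexamethasone libraries. Saline means were -3.05 ± 4.46 and 0.73 ± 2.15 log2 CPM (SD, n = 4), so these highs do not stand for the saline group. Lists of chondrocyte and osteoblast markers summed to 25.3 to 34.6 and 22.7 to 29.7 CPM in dexamethasone libraries and to 35.5 to 72.8 and 21.5 to 47.1 CPM in saline libraries. None of the measured markers had 0 reads in all 13 libraries. Smoc2 and Itgam each stood in a pair of lists. The part of these cell types in the rises of the members was not tested, beyond fits with a list mean as a covariate. With the fibroblast list mean as a covariate the same 8 members rose, with log2 fold changes of 0.54 for Thbs2 to 2.53 for Thbs1. That mean lay at 6.86 to 7.07 log2 CPM in dexamethasone libraries and at 6.74 to 7.10 log2 CPM in saline libraries. It hardly differed between the groups, so this fit could take away little of a group difference and does not settle the part of these cells.

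A covariate made of the mean of the mature fibre markers lay at 11.65 to 12.18 log2 CPM in dexamethasone libraries and 12.29 to 12.78 log2 CPM in saline libraries so that it does not overlap between the groups, and with it 6 members rose. The log2 fold changes were then 1.69 for Ccn2, 1.68 for Ccn1, 0.91 for Ccn4, 1.83 for Thbs1, 0.44 for Thbs4 and 0.76 for Tnc, and the calls of Ccn5 (0.16, adjusted p 0.714, limma) and Thbs2 (0.27, adjusted p 0.409, limma) ended. Over the 9 dexamethasone libraries alone, Thbs4 ran opposite to that fibre mean (r -0.815, exact permutation p 0.0107; rho -0.783, exact permutation p 0.0172; r -0.859 without the 2 farthest libraries). Sparc did likewise (r -0.749, exact permutation p 0.0176; rho -0.667, exact permutation p 0.0589; r -0.918 without the 2 farthest libraries), and Thbs4 went with the fibroblast mean (r 0.77, exact permutation p 0.017; rho 0.583, exact permutation p 0.108; r 0.85 without the 2 farthest libraries). Of the 20 relations of members with these 2 list means 0 passed adjustment, these 3 having the smallest adjusted p, 0.117 each (exact permutation). Ccn1 had signs opposite to those of Thbs4. Its r was 0.587 with the fibre mean (exact permutation p 0.0977) and -0.690 with the fibroblast mean (exact permutation p 0.0416). Without the 2 farthest libraries these r were 0.949 and -0.855.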

How the data were processed

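Messenger RNA was compared between 9 dexamethasone and 4 saline libraries, 1 from each mouse, assigned by the titles in the labels. The submitters' processing notes name featureCounts 2.0.1, limma 3.50.1 and mm10; aligner, annotation and strand setting were not given in sources used here. The deposited files hold log2 CPM for every mouse, and the authors' own log2 fold changes and adjusted p-values. They hold 14911 genes, and 14970 in a second table normalised together with the excluded saline mouse, whose 1 column was not used. Each log2 value adds 0.5 to the reads and divides by a library's effective size: turned back into reads, 100% lay within 0.01 of an integer. Read number limits the precision of scarce genes.

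Groups were compared with limma 3.58.1 in R 4.3.3 on the deposited log2 CPM with an intensity trend; tests were two-sided, and p-values were Benjamini-Hochberg adjusted over 14911 genes and called at 0.05. Fold changes are differences of group means of log2 CPM. Ratios, single members and correlations were tested by exact permutation (numpy 2.4.6, scipy 1.17.1). The steps were checked on simulated data. Genes named were the members, called relatives with a mean log2 CPM of 1 or more, and from each further list up to 4 genes, by adjusted p, with a mean of 0 or more; others are said to be chosen after their values were seen or complete a short count. Some genes that this rule would name are not reported here. The members and lists were chosen with earlier results of these data known. Positions and sequences come from RefSeq (GRCm38.p6), and exon lengths from GENCODE M21, which may differ from the annotation the authors used. P-values of group comparisons set the difference between groups against the variation between mice. Figures were drawn with matplotlib 3.10.9.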

Additional observations from a re-analysis of the deposited data

How the results depend on the processing

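The counts of called genes and members and the log2 fold change of each member were recomputed under 28 alternatives. They changed the table used, the pseudocount, the filter on low genes, the scaling (centring on the median, quantiles), the moderation of the spread, the weighting of libraries, the tool (voom run on reads turned back into integers; rank sums, exact), the covariate (either list mean) and the libraries entered. Leaving out saline library 3 together with dexamethasone library 4 was chosen after seeing the data. Planned count models (edgeR and DESeq2) were not run, and voom on the reads turned back into integers was used in their place. Ccn1, Ccn2, Ccn4, Thbs1, Thbs4 and Tnc kept direction and call under all 28; the exceptions for Ccn5, Thbs2 and Postn are given with their values above, and Sparc was called under none. With the fibre list mean as a covariate 1277 genes rose and 1129 fell, against 3760 and 3413, and 6 members rose. Without each library in turn, 3357 to 3767 genes rose, 2949 to 3409 fell, 7 or 8 members rose, and 7 or 8 of the 12 ratios passed. Of the 45 pairs 0 passed adjustment without dexamethasone library 4 (smallest adjusted p 0.0902, 12 unadjusted under 0.05, exact permutation) and 0 without the 2 libraries farthest from the median (smallest adjusted p 0.427, 3 unadjusted under 0.05, exact permutation), with fewer libraries in each.

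Same-numbered libraries of the 2 groups deviated together weakly or not at all (correlations of -0.0699 to 0.1185 over genes). For saline libraries 1, 2 and 3 a dexamethasone library of another number was closer. For saline library 5 the same-numbered library was the closest (0.1185, against at most 0.1043 with any other). The numbers were not read as pairs. On the 8 libraries numbered in both groups, 3054 genes rose and 2905 fell with the number as a replicate block, and 3154 and 2970 without it; 8 members rose in each. The median of all genes moved by under 0.1 on the log2 scale under every scaling. List medians that moved by over 0.1 were those of the other matricellular genes (0.40 with log2 of CPM plus 1, against 0.51), of fibre markers (-0.20 under quantile normalisation, against -0.45), and of chondrocyte and osteoblast markers (-0.28 and 0.12 with log2 of CPM plus 1, against -0.50 and 0.37).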
